A study of Mus musculus with 16 samples.

Results

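The 5 genes Vapb, Tra2a, Chmp4b, Tatdn2 and Tcfcp2l1 were 5 of the 27745 gene names on the array and were measured by 13 of its 41174 gene probes, and their probes are described here one by one. A probe is an oligonucleotide of 60 bases that reports the RNA it binds, so that several probes of a gene give separate readings of different stretches of its transcripts. Vapb and Tra2a had 3 probes each, Chmp4b had 2, Tatdn2 had 1 and Tcfcp2l1 had 4. Every probe whose gene name on the array was one of these 5 names was taken. The genes themselves had been chosen by the log2 difference between the diets in these same mice, which varied among their probes, so the differences between the diets are given below as a description, without a test. Probes of opposite sign were found in Vapb and Tra2a. The probes of Chmp4b were all on the lower side with the cHF+F+ROSI diet and those of Tcfcp2l1 all on the higher side, and they differed in size. Tatdn2 had a single probe, which leaves nothing to compare within the gene.

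The genes belong to separate pathways. Vapb encodes a protein anchored in the membrane of the endoplasmic reticulum that holds this organelle to other membranes through lipid-transfer proteins, and a mutated form causes a motor neuron disease in man. Tra2a is an RNA-binding protein with regions rich in arginine and serine that promotes the inclusion of exons during splicing. Chmp4b is a core subunit of ESCRT-III, the filament that cuts membrane necks in multivesicular bodies, in cell division and in the repair of the plasma membrane. Tatdn2 belongs to the TatD family of nucleases. Tcfcp2l1, now named Tfcp2l1, is a transcription factor of the CP2 family that is known from pluripotent cells and from the kidney. A transcript can differ from another of the same gene in its exons or in where it ends, and a probe reports only the transcripts that hold its stretch.

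The data were from gastrocnemius, a muscle of the calf, of male C57BL/6N mice, 8 on the cHF+ROSI and 8 on the cHF+F+ROSI diet, that started the diets at 3 months of age. Both groups ate the corn-oil-based high-fat cHF diet, in which lipids made up about 35% of the weight, together with 10 mg of the PPARγ agonist rosiglitazone per kg of diet, over 8 weeks. The cHF+F+ROSI diet differed by a concentrate of n-3 LC-PUFA in place of 15% of its lipids. The mice were fasted for 10 h in the light phase and then re-fed Chow diet overnight before they were killed. RNA of each mouse, labelled with Cy5, was hybridised with a Cy3-labelled pool shared by all 16 arrays, no dyes were swapped, and each value below is log2 of Cy5 over Cy3. In whole muscle, a lower ratio from less RNA per cell and one from fewer cells of a type cannot be told apart.

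Each of the 4 slides carried 4 arrays. Positions 1 and 3 of a slide held cHF+ROSI and positions 2 and 4 cHF+F+ROSI samples, so position and diet cannot be told apart. By array, the median of Cy5 over background ranged from 2.33 to 3.64 in cHF+ROSI and from 2.98 to 3.46 in cHF+F+ROSI mice, with the lowest on the array of cHF+ROSI mouse 1. After the mean of each diet was taken out of the 19398 probes kept by the filter, the first component of variation held 24.2% of the variance and was mostly cHF+ROSI mouse 1 (weight -0.88), and the second held 18.9% and was mostly cHF+F+ROSI mouse 2 (weight 0.75). These 2 mice stood apart from the others, and some values are also given without them. All 9 muscle marker genes listed were kept, among them Acta1, Ckm and Myh4. In the shared Cy3 pool, limma found 0 of the kept probes different between the diets at an adjusted p below 0.05, and 621 at an unadjusted p of up to 0.05.

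The 3 probes of Vapb gave 3 different readings, from a clearly lower mean to no visible difference. They lay along the plus strand of chromosome 2 in build mm8, the build named in the array files. A_51_P323443 was at chr2:173417340-173417399, A_52_P556140 was 4.84 kb further at chr2:173422178-173422237, and A_51_P458873 was 9.71 kb further at chr2:173427052-173427111. Which exon or untranslated region each probe lies in was not analysed here.

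At A_52_P556140, the middle probe, the log2 ratios of the cHF+F+ROSI mice ranged from -2.66 to -0.40 with a median of -1.16. Those of the cHF+ROSI mice ranged from -0.82 to 0.06 with a median of -0.23. All 8 cHF+F+ROSI mice were below the cHF+ROSI mean and 5 were below the lowest cHF+ROSI mouse, while the other 3 overlapped with that group. The means were -1.19 ± 0.78 (SD, n = 8) and -0.33 ± 0.32 (SD, n = 8), a log2 difference of -0.86 with an SE of 0.27, which is an FC of 1.81 towards lower in the cHF+F+ROSI mice. The lowest ratio was that of cHF+F+ROSI mouse 2, without which the difference was -0.65, and with arrays weighted by quality it was -0.53. This probe was among the brightest on the array, with a Cy5 signal 1075 times background, and on 15 of 16 arrays its Cy5 value was marked as scaled up from the scan at low power.

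At A_51_P323443, the first Vapb probe, the cHF+F+ROSI mice ranged from -1.45 to -0.23 and the cHF+ROSI mice from -0.94 to 0.14. The difference was -0.26 with an SE of 0.19, and the groups overlapped over most of their range. It was -0.16 without cHF+F+ROSI mouse 8, -0.17 without cHF+ROSI mouse 2 and -0.17 with arrays scaled to a common spread. At A_51_P458873, the last probe, the mice on the cHF+F+ROSI diet spanned 0.07 to 0.36 and those on the cHF+ROSI diet -0.15 to 0.40. Here the cHF+F+ROSI mice lay wholly inside the range of the cHF+ROSI mice, and the difference was 0.06 with an SE of 0.07. It was 0.01 without cHF+ROSI mouse 1, 0.09 without cHF+ROSI mouse 8 and 0.02 with arrays weighted by quality. This small value is the one whose sign was opposite to that of the other Vapb probes. Both flanking probes were well above background in both channels on 16 of 16 arrays, with Cy5 signals 47.6 and 33.8 times background.

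Tra2a showed probes on both sides of zero. The gene lay on the minus strand of chromosome 6, so the probe with the highest coordinates came first along the transcript. A_52_P482063 was at chr6:49190317-49190376. A_52_P591431 followed, its match reaching over 2081 bases at chr6:49176546-49178626, longer than the 60 bases of the probe, so that it joins sequence from more than one block of the genome. A_51_P513163 was last, at chr6:49173535-49173594.

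The cHF+F+ROSI mice ranged from -1.62 to -0.11 at A_52_P591431, with a median of -0.37. The cHF+ROSI mice ranged from -0.24 to 0.27, with a median of 0.03. All 8 cHF+F+ROSI mice were below the cHF+ROSI mean and 5 were below its lowest mouse. The means of -0.53 ± 0.50 and 0.02 ± 0.17 (SD, n = 8 each) differed by -0.55 with an SE of 0.17 (FC 1.47). At A_51_P513163, the last probe, the cHF+F+ROSI mice ranged from -1.54 to -0.50 and the cHF+ROSI mice from -0.70 to 0.09, and the difference was -0.37 with an SE of 0.14. cHF+F+ROSI mouse 2 was again the lowest at both of these probes, and without it the differences were -0.40 and -0.27. From the processed signals of Feature Extraction the difference at A_52_P591431 was -0.89, and with arrays weighted by quality that at A_51_P513163 was -0.21.

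The first Tra2a probe, A_52_P482063, went the other way. The cHF+F+ROSI mice ranged from -0.05 to 0.23 and the cHF+ROSI mice from -0.18 to 0.05, and all 8 cHF+F+ROSI mice were above the cHF+ROSI mean. The difference was 0.16 with an SE of 0.06, and cHF+F+ROSI mouse 2, at 0.18, was among the higher mice here. The difference from the processed signals of Feature Extraction was 0.28. This was the dimmest of the 3 probes, with a Cy5 signal 6.34 times and a Cy3 signal 2.59 times background, close to the limit of 2 for both channels. Its transcript accession was 1 of 2 among the 13 probes that found no match in the RefSeq gene table, so that its place in Tra2a rests on the array's own annotation.

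Chmp4b had a lower mean with the cHF+F+ROSI diet at both of its probes. A_52_P622680 was at chr2:154384025-154384084 on the plus strand and A_52_P288873 was 2.03 kb further at chr2:154386058-154386117. At A_52_P622680 the cHF+F+ROSI mice ranged from -2.28 to -1.54 with a median of -2.00, and the cHF+ROSI mice from -1.87 to -0.18 with a median of -1.26. Mice 2 and 3 of the cHF+ROSI diet, at -0.18 and -0.22, were well above the other 6. The difference was -0.76 with an SE of 0.23 (FC 1.70), and -0.62 without cHF+ROSI mouse 2. At A_52_P288873 the ranges were -0.94 to -0.18 and -0.40 to 0.51, with a difference of -0.45 and an SE of 0.15 (FC 1.37). The same 2 cHF+ROSI mice were highest there, at 0.48 and 0.51. All 8 cHF+F+ROSI mice were below the cHF+ROSI mean at both probes. The Cy5 signal was 35.5 times background at A_52_P622680 and 574 times at A_52_P288873. At A_52_P288873 the Cy5 value was marked as scaled up from the scan at low power on 14 of 16 arrays.

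Tatdn2 had its probe at chr6:113675856-113675915 on the plus strand, and 7 of 8 mice on the cHF+F+ROSI diet were below the cHF+ROSI mean. The cHF+F+ROSI mice ranged from -2.49 to -0.79 with a median of -1.91, and the cHF+ROSI mice from -1.65 to -0.36 with a median of -1.25. The difference was -0.65 with an SE of 0.23 (FC 1.57). Mouse 6 of the cHF+F+ROSI diet, at -0.79, was the exception. The difference was -0.55 without cHF+F+ROSI mouse 2 and -0.48 without both this mouse and cHF+ROSI mouse 1. With arrays weighted by quality it was -0.42.

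Tcfcp2l1 had a higher mean with the cHF+F+ROSI diet at each of its 3 kept probes. The transcript was measured at chr1:120506052-120506111 by A_52_P63232, at chr1:120508091-120508150 by A_52_P516473 and at chr1:120512615-120512674 by A_52_P175376, all on the plus strand, and A_52_P20867 had no position in the array annotation. At A_52_P175376 the cHF+F+ROSI mice ranged from 0.28 to 1.29 with a median of 0.73, and the cHF+ROSI mice from -0.05 to 0.76 with a median of 0.24. All 8 cHF+F+ROSI mice were above the cHF+ROSI mean and 3 were above its highest mouse. The difference was 0.56 with an SE of 0.14 (FC 1.48).

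The other Tcfcp2l1 probes were dimmer, and in these ratios they gave smaller differences. The difference was 0.28 with an SE of 0.09 at A_52_P20867, and 0.27 with an SE of 0.07 at A_52_P516473. Their Cy5 signals were 8.36 and 3.76 times background, against 74.9 times at A_52_P175376. Their Cy3 signals were 2.71 and 2.13 times background, close to the limit of 2. A_52_P63232 was not kept, with a Cy3 signal 1.60 times background and well above background in Cy5 on only 6 of 16 arrays, and without the filter its difference was 0.15 with an SE of 0.06. Ratios were formed without background subtraction, and its part in the smaller differences was not tested. With normexp background correction the differences were 0.20 at A_52_P516473 and 0.26 at A_52_P20867. With Edwards background correction they were 0.26 and 0.27. From the processed signals of Feature Extraction the order of the probes turned, with 0.87 at A_52_P516473, 0.65 at A_52_P175376 and 0.50 at A_52_P20867.

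**Figure D1:**
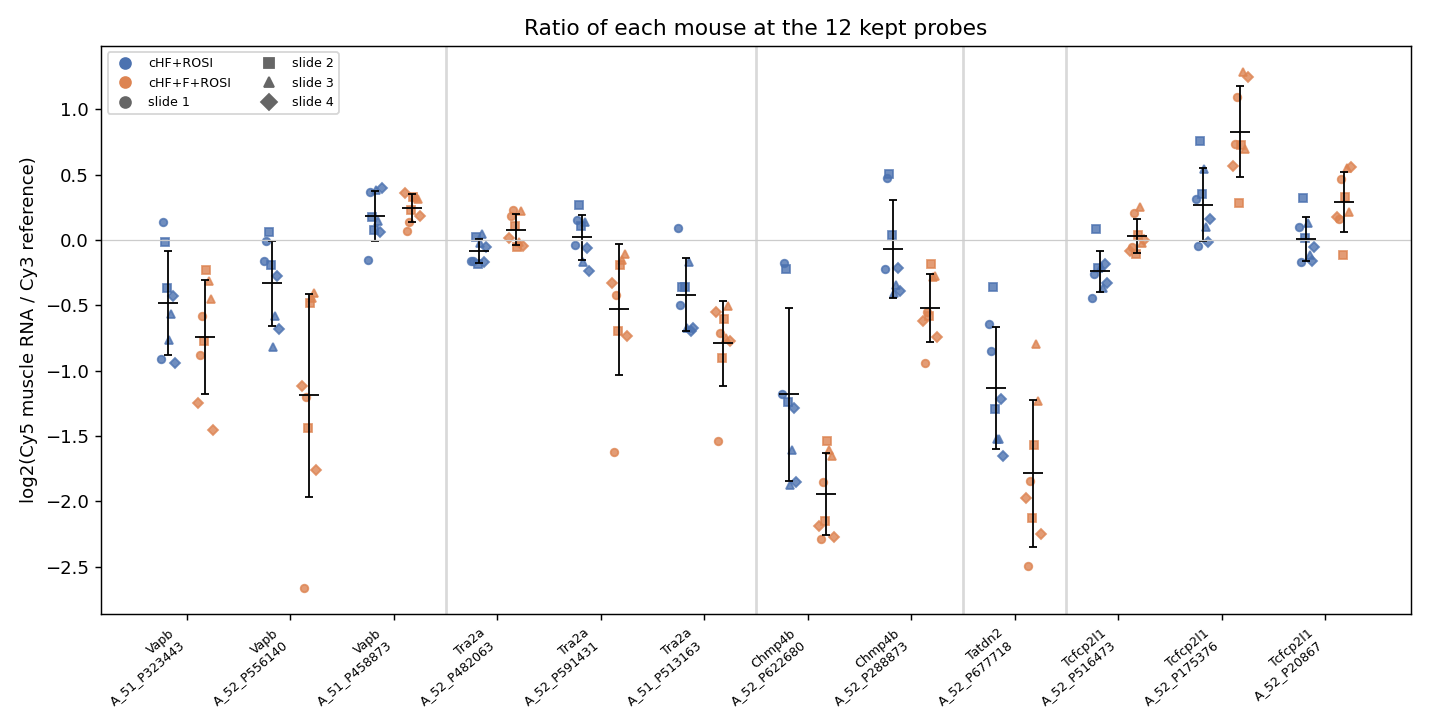
Each point is the log2 ratio of Cy5 muscle RNA to the Cy3 pool in a mouse, at the 12 kept probes (x axis, in order along each gene), by diet (colour) and slide (shape). Black lines give the mean ± SD of 8 mice. The diets overlap at every probe. At the middle Vapb probe, A_52_P556140, cHF+F+ROSI mice reach -2.66, while at the last, A_51_P458873, they span 0.07 to 0.36.

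In all, the mean of the cHF+F+ROSI diet was below that of the cHF+ROSI diet at 7 of the 12 kept probes and above it at 5, where 49.4% of all 19398 kept probes were below. At 0 of the 12 did the groups of 8 mice not overlap. Over all kept probes, the groups did not overlap at 0.149%. Both shares are given only as background, since the same contrast chose the genes. With Cy5 alone, normalized by quantiles and without the reference, each of these 12 differences had the same sign, and it was -1.05 at A_52_P556140 and 0.16 at A_51_P458873 of Vapb. In the Cy3 channel alone, the reading of the shared pool, the differences at the 12 probes lay between -0.15 and 0.07. The largest of these, -0.15 with an SE of 0.14, was at A_52_P556140. At A_51_P458873, the Vapb probe of opposite sign, Cy3 alone differed by 0.07 (SE 0.03) and Cy5 alone by 0.16 (SE 0.09). At A_52_P482063, that of Tra2a, Cy3 alone differed by -0.06 (SE 0.04) and Cy5 alone by 0.11 (SE 0.09). The part of the reference signal in the opposite signs was not tested.

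The width of the differences within a gene, highest minus lowest probe, was 0.92 on the log2 scale in Vapb, 0.72 in Tra2a, 0.31 in Chmp4b and 0.29 in Tcfcp2l1. Over the 4374 genes with at least 2 kept probes, the median width was 0.07 and the 95th percentile was 0.24. Vapb had the widest of them, 3 genes were as wide as Tra2a or wider with Tra2a itself counted, 85 as wide as Chmp4b and 108 as wide as Tcfcp2l1. These places describe what the genes were picked for. Probes of opposite sign were common, in 40.4% of the 4374 genes, and so were not particular to Vapb and Tra2a. The width in Vapb was 0.73 without cHF+F+ROSI mouse 2, and 0.54 when arrays were weighted by quality, and that in Tra2a was 0.54 without this mouse and 1.17 from the processed signals of Feature Extraction. Scaling the arrays to a common spread gave 0.19 for Chmp4b.

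**Figure D2:**
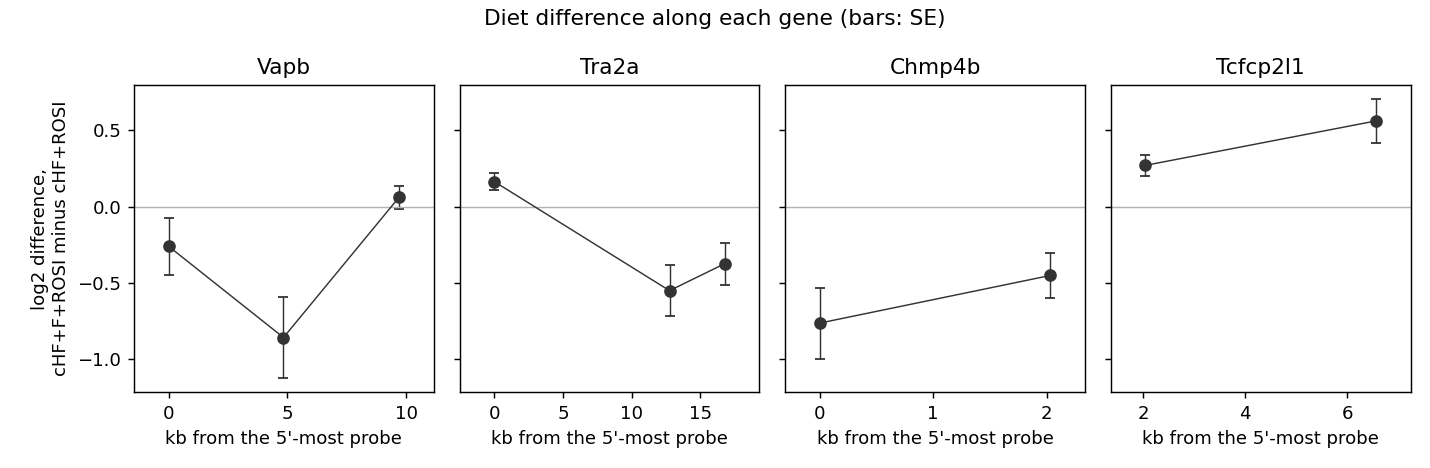
Log2 difference between the diets (y axis, cHF+F+ROSI minus cHF+ROSI, with SE) against the distance in kb from the probe nearest the 5′ end of the gene (x axis). In Vapb the value goes from -0.26 to -0.86 and then 0.06, and in Tra2a from 0.16 to -0.55 and -0.37. In Tcfcp2l1 the distance is counted from A_52_P63232, which fell under the filter on signal over background and is not drawn, and A_52_P20867 has no position and is not drawn either.

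The difference was not the same on each slide. Each slide held 2 mice of each diet. At A_52_P556140 of Vapb it was -1.85 on slide 1, which held cHF+F+ROSI mouse 2, and -0.90, 0.28 and -0.96 on slides 2, 3 and 4. On slide 3 the sign also turned at A_52_P622680 of Chmp4b, to 0.11, and at A_52_P677718 of Tatdn2, to 0.51, and the difference was smallest there, at -0.11, for A_52_P591431 of Tra2a. The 2 cHF+ROSI mice of slide 3, mice 5 and 6, were low for their diet at A_52_P622680, at -1.87 and -1.61. Mouse 8 of cHF+ROSI, on slide 4, was also low, at -1.85. The 2 cHF+F+ROSI mice of slide 3, mice 6 and 7, were high for their diet there, at -1.60 and -1.65. At A_52_P175376 of Tcfcp2l1 the value was positive on slides 1, 3 and 4 and -0.05 on slide 2. With 2 mice a diet on a slide, these values carry no test.

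**Figure D3:**
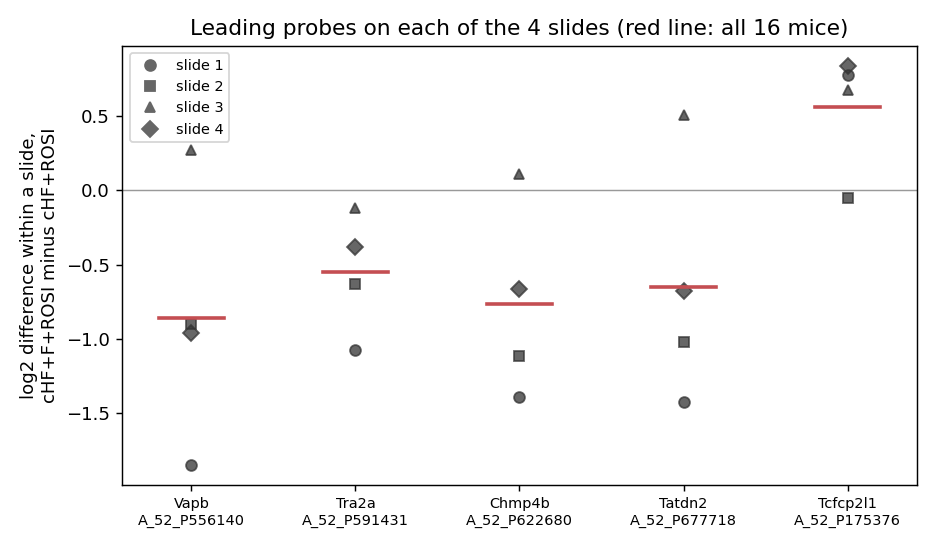
Log2 difference between the diets within each slide (y axis, points by slide, 2 mice a diet) at the leading probe of each gene, the kept probe with the largest difference (x axis), with the difference over 16 mice as a red line. On slide 3 the Vapb, Chmp4b and Tatdn2 probes are above zero, at 0.28, 0.11 and 0.51, and on slide 2 the Tcfcp2l1 probe is at -0.05.

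Whether probes of a gene also followed each other from mouse to mouse was tested after the mean of each diet had been taken away, which removes the difference that chose the genes. Over the 10 pairs of kept probes of the same gene, Pearson's r ranged from -0.17 to 0.97 with a median of 0.63, and 6 pairs passed an adjusted p of 0.05 in a permutation test with mice exchanged within a diet (two-sided, Benjamini-Hochberg over the 10). The probes that disagreed in sign were in the pairs that did not pass, and those alike in sign passed in Vapb, Tra2a, Chmp4b and Tcfcp2l1. For each pair that passed, up to 3.89% of all kept probes had an r at least as high with a probe of the pair.

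In Vapb, A_51_P323443 and A_52_P556140 varied together with r = 0.62 (permutation p = 0.0148, adjusted 0.0247) and Spearman's rho = 0.71 (permutation p = 0.00436, adjusted 0.0109). The r was 0.58 without the 2 mice farthest from the median of A_51_P323443, 0.62 within slides and 0.86 without the 2 mice that stood apart. Its adjusted permutation p was 0.0663, 0.0544 and 0.0541 when cHF+ROSI mouse 3, cHF+F+ROSI mouse 5 or cHF+F+ROSI mouse 6 was left out. The last probe, A_51_P458873, had r = 0.23 with A_52_P556140 (adjusted permutation p = 0.412) and 0.19 with A_51_P323443 (adjusted permutation p = 0.604). Within the diets the former was 0.84 in the cHF+F+ROSI mice (exact permutation p = 0.00888, n = 8) and -0.42 in the cHF+ROSI mice (exact permutation p = 0.297, n = 8), and without mice 2 and 7 of cHF+F+ROSI the pooled r was -0.03.

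In Tra2a, the 2 lower probes, A_52_P591431 and A_51_P513163, had r = 0.77 (permutation p = 0.00272, adjusted 0.00907) and rho = 0.67 (permutation p = 0.0042, adjusted 0.0109), with r = 0.78 within slides. Without cHF+F+ROSI mouse 2, r was 0.48 with an adjusted permutation p of 0.0766, and without both this mouse and cHF+ROSI mouse 1 r was 0.72 with an adjusted permutation p of 0.00658. With slide as a block, where mice were exchanged only between the 2 of a diet on a slide, the adjusted permutation p was 0.123. The r was 0.95 in the cHF+F+ROSI mice (exact permutation p = 0.00382, n = 8) and 0.43 in the cHF+ROSI mice (exact permutation p = 0.287, n = 8). A_52_P482063, the probe of the other sign, had r = -0.17 with A_52_P591431 and -0.16 with A_51_P513163, both with an adjusted permutation p of 0.649.

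Both Chmp4b probes followed each other closely, with r = 0.95 and rho = 0.93, and within slides r was 0.98. The adjusted permutation p was 5e-05 for either, the smallest that the resamples could give among these pairs. The r was 0.90 without cHF+ROSI mice 2 and 3. In Tcfcp2l1, A_52_P175376 and A_52_P20867 had r = 0.97 and rho = 0.94 with the same adjusted permutation p, and r = 0.98 within slides. The dim A_52_P516473 had r = 0.67 with A_52_P175376 (adjusted permutation p = 0.0132) and 0.65 with A_52_P20867 (adjusted permutation p = 0.0145), while rho was 0.57 and 0.52 with adjusted permutation p of 0.0589 and 0.0784. Both calls on r were lost with slide as a block, at an adjusted permutation p of 0.0696 each, and without cHF+ROSI mouse 3, at 0.098 and 0.122. Without cHF+ROSI mouse 3 and cHF+F+ROSI mouse 6, the 2 farthest mice, these r were 0.42 and 0.40. Over all genes with at least 2 kept probes, the median r of the probes with the highest and the lowest difference was 0.41. It was at least 0.75 in 20.9% of genes and below 0 in 21.0%. The r of these extreme probes was 0.95 in Chmp4b, 0.67 in Tcfcp2l1, 0.23 in Vapb and -0.17 in Tra2a.

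**Figure D4:**
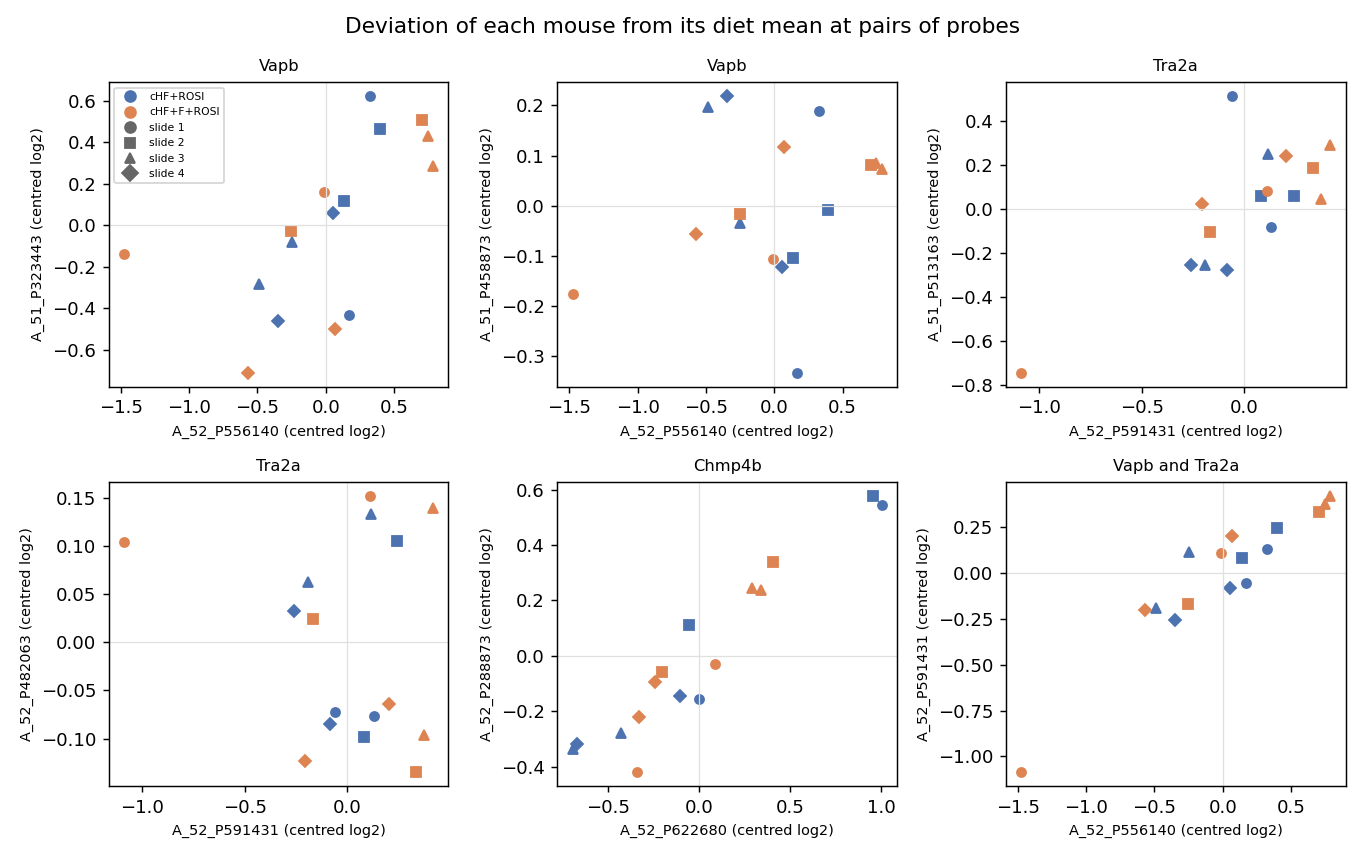
Deviation of each mouse from the mean of its diet (log2, both axes) at 6 pairs of probes, with diets by colour and slides by shape. The Chmp4b pair (r = 0.95) and the pair of Vapb and Tra2a (r = 0.94) lie along a line, while A_52_P482063 of Tra2a (r = -0.17) and A_51_P458873 of Vapb (r = 0.23) scatter. cHF+F+ROSI mouse 2 is the orange circle at far left in the panels with A_52_P556140 or A_52_P591431 on the x axis.

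The leading probe of each gene, the one with the largest difference, was also set against those of the other genes, in 10 pairs. All 6 pairs among Vapb, Tra2a, Chmp4b and Tatdn2 passed an adjusted permutation p of 0.05, with r between 0.53 and 0.94, and 0 of the 4 pairs with Tcfcp2l1 did, with r between 0.09 and 0.35. Such r were not particular to these genes. For Tra2a and Chmp4b, 11.8% of all kept probes had an r at least as high with the first-named probe. That share was 5.00% for Vapb and Chmp4b, 3.62% for Tra2a and Tatdn2, 0.376% for Vapb and Tatdn2 and 0.175% for Chmp4b and Tatdn2. The highest r was between A_52_P556140 of Vapb and A_52_P591431 of Tra2a, with r = 0.94, rho = 0.91 and a share of 0.0258%. With slide as a block, 3 of the 10 pairs of leading probes and 3 of the 10 pairs of the same gene passed. Mice were then exchanged only between the 2 of a diet on a slide, so few arrangements exist and the p is coarse. All 3 pairs of Tatdn2 with Vapb, Tra2a and Chmp4b lost the call, with adjusted permutation p of 0.0554, 0.0554 and 0.0588, and the 3 pairs among Vapb, Tra2a and Chmp4b kept it. Without slide as a block, the adjusted permutation p for Vapb and Tra2a was 5e-05. The r was 0.94 within slides, 0.86 without cHF+F+ROSI mice 2 and 7, and 0.90 without the 2 mice that stood apart. Vapb and Tatdn2 had r = 0.84 and rho = 0.93 (adjusted permutation p of r 0.000225), with r = 0.86 within slides and the call lost with slide as a block. Chmp4b and Tatdn2 had r = 0.78 and rho = 0.89 (adjusted permutation p of r 0.000225), with r = 0.83 within slides and the call lost in the same way.

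A_52_P556140 of Vapb had a higher r with Tra2a's A_52_P591431, at 0.94, than with either other probe of Vapb, at 0.62 and 0.23. The differences between these r were not tested. These probes did not vary with each other alone. Of 19397 other kept probes, 188 had an r of at least 0.8 with the Vapb probe, 211 with that of Tra2a, 25 with that of Chmp4b, 85 with that of Tatdn2 and 18 with that of Tcfcp2l1. The second component of variation, mostly cHF+F+ROSI mouse 2, had r = -0.89 with the Vapb and -0.92 with the Tra2a probe. Its r was -0.17 with A_51_P458873 and 0.12 with A_52_P482063. With the first component, mostly cHF+ROSI mouse 1, A_51_P458873 had r = 0.73. That r was 4e-04 with the Vapb and 0.07 with the Tra2a leading probe, and 0.03 with A_52_P482063. The part of these components in the agreement between the probes was not tested.

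**Figure D5:**
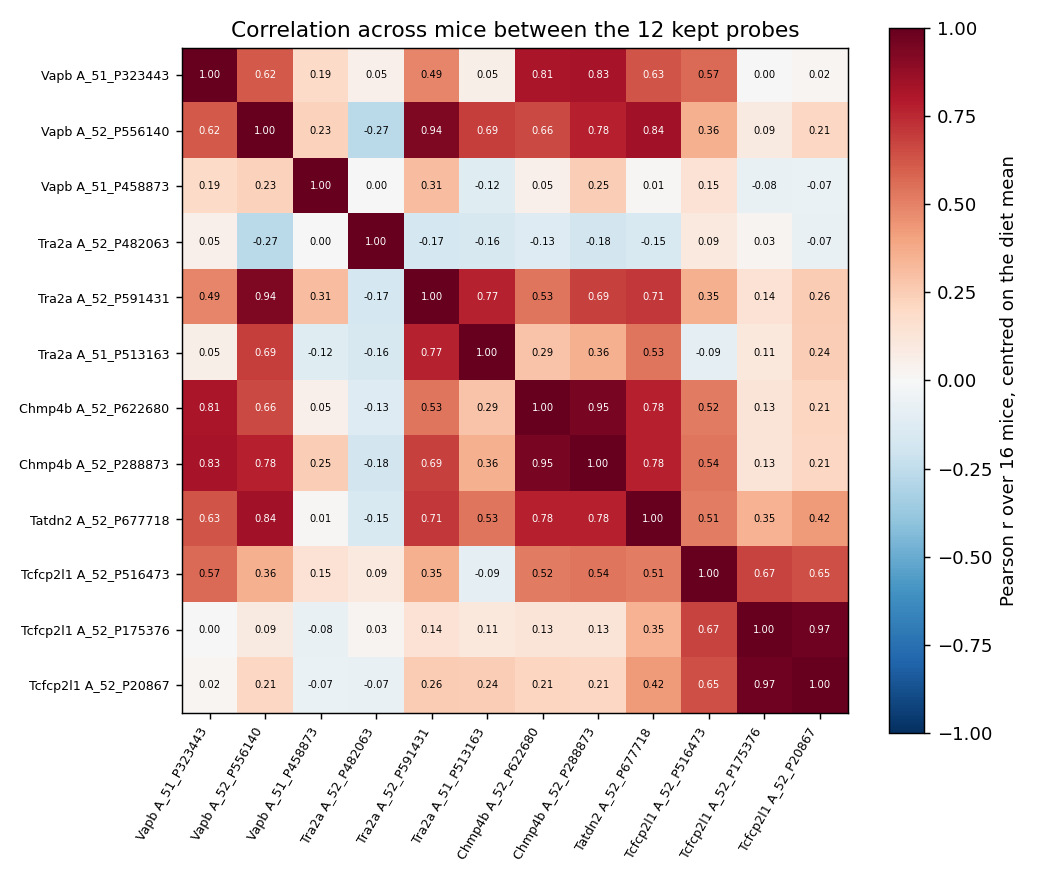
Pearson's r over 16 mice between the 12 kept probes, after the mean of each diet was taken away, from blue (-1) to red (1). The leading probes of Vapb, Tra2a, Chmp4b and Tatdn2 have r of 0.53 to 0.94 with each other, while A_51_P513163 of Tra2a has only 0.05 with A_51_P323443 of Vapb. The probes of Tcfcp2l1 have r of 0.65 to 0.97 with each other, and A_52_P516473 among them has 0.52 and 0.54 with the Chmp4b probes.

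Probes of the same gene were left out when the probes most like each leading probe over the 16 mice were ranked. In Chmp4b and Tcfcp2l1, a probe of the same gene had a higher r than any given here, at 0.95 and 0.97. The 3 highest probes of other genes follow. For Vapb they were Lmnb1, a protein of the nuclear lamina (r = 0.97), and both probes of Ube2s, a ubiquitin-conjugating enzyme of mitosis (r = 0.95 each). For Tra2a they were Suds3, a subunit of the Sin3 histone deacetylase complex (r = 0.96), Ube2s (r = 0.96) and Max, the partner of Myc (r = 0.95). For Chmp4b they were Aph1a, a subunit of γ-secretase (r = 0.94), the lipid-transfer protein gene Pitpnc1 (r = 0.88) and AK040647 (r = 0.87). For Tatdn2 they were Fxr1h, an RNA-binding protein (r = 0.95), Mpst, a sulfurtransferase (r = 0.95), and the transcription factor Elf2 (r = 0.93). For Tcfcp2l1 they were Spcs3, a subunit of the signal peptidase (r = 0.92), Gpr177, the carrier of Wnt proteins now named Wls (r = 0.88), and Musk, the receptor kinase of the neuromuscular junction (r = 0.85). All of these were the highest among the kept probes of other genes and carry no test.

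Genes related to these 5 were compared between the diets by limma over the 19398 kept probes, at the brightest kept probe of each. Of 54 such genes 47 were kept, and 0 passed an adjusted p of 0.05, against 0.0722% of all kept probes. At an unadjusted p of up to 0.05, 0 had a lower and 4 a higher mean with the cHF+F+ROSI diet. Over all kept probes 4.92% were lower and 5.36% higher at that limit, and the median difference was 0.01 in the relatives and 0.00 over all kept probes. Without cHF+ROSI mouse 6 the count of relatives at that limit was 7, and it was 9 with arrays weighted by quality.

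The partners of VAP proteins at contacts of the endoplasmic reticulum held 3 of the 4. They were the oxysterol-binding proteins Osbp (difference 0.18, SE 0.06, limma adjusted p = 0.344), Osbpl1a (0.18, SE 0.08, limma adjusted p = 0.456) and Osbpl2 (0.13, SE 0.05, limma adjusted p = 0.386), out of 12 kept genes of 15 on that list. Among 14 SR splicing factors and their kinases, Sfrs11 was the fourth (0.16, SE 0.06, limma adjusted p = 0.379). Among 18 ESCRT genes there were 0, and their differences lay between -0.19 and 0.07, against -0.76 and -0.45 at the Chmp4b probes. The closest family members did not pass either limit. The difference was -0.09 (SE 0.05) in Vapa, -0.13 (SE 0.07) in Tra2b, which the array calls Sfrs10, 0.06 (SE 0.05) in Chmp4c and -0.08 (SE 0.05) in Tatdn1, and Tcfcp2 was not kept.

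Markers of cell types that whole muscle can hold were read in the same fit. For endothelium 4 of 4 were kept and 3 had a lower mean with the cHF+F+ROSI diet at an unadjusted p of up to 0.05, with 0 at an adjusted p below 0.05 in limma. The 3 were Pecam1 (-0.14), Cdh5 (-0.19) and Kdr (-0.27), and Tek was at -0.09. The mean over these 4 genes ranged from -0.36 to -0.06 on the cHF+F+ROSI diet and was between -0.28 and 0.00 in the cHF+ROSI mice. At that limit 0 of 6 adipocyte, 5 macrophage, 3 red blood cell, 4 Schwann cell and 9 muscle genes differed. The part of the endothelial difference in the lower probes of Vapb, Tra2a, Chmp4b and Tatdn2 was not tested.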

How the data were processed

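The members and gene lists were chosen with earlier results of these data known. The authors deposited spot intensities of 16 two-color arrays and a normalized log2 table (median signals, weak spots removed). File headers give Feature Extraction 10.5.1.1 and the submitters' processing notes 10.5.5.1. Control spots and flagged outliers were dropped, as were spots whose signal averaged under 2 times background in either channel, and log2(Cy5/Cy3) of median signals was normalized by loess within each array. limma 3.58.1 (lmFit, eBayes; R 4.3.3) compared the diets over 19398 probes, with p adjusted by Benjamini-Hochberg.

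Background correction by normexp with an offset of 50 had been planned. It was given up after its result was seen, because its fit failed on 3 arrays (cHF+ROSI 1 and 5, cHF+F+ROSI 5): their median Cy5 signal rose from between 116 and 152 to between 1152 and 1235, and the spread of their log2 ratios (median absolute deviation) shrank to between 0.04 and 0.12, against 0.23 to 0.33 without correction. On 2 further arrays (cHF+F+ROSI 2 and 3) the median rose to 365 and 410. Ratios without background correction, which had been set down as an alternative, are therefore reported, and normexp is among the alternatives.

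Correlations used 100000 permutations within diet. Genes named besides the members were the 3 probes of other genes most like each leading probe, relatives past an unadjusted p of 0.05 and the closest family members. RefSeq matched 11 of 13 probe accessions. No arrays were identical. Each array held RNA of a separate mouse, numbered as in the labels. The limma fit was tested on the array signals with known changes added under mixed labels, and the permutation test on simulated pairs. The number of arrays and the weak Cy3 signal limit precision.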

Additional observations from a re-analysis of the deposited data

Results flagged for a closer look

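Each of the 12 kept probes was examined for a mouse far from the other 7 of its diet, in 24 groups of 8, of which chance would mark about 1.2. In 2 groups a mouse lay apart, both at Tra2a and both in cHF+F+ROSI mouse 2. Its log2 ratio was -1.62 at A_52_P591431, where the next lowest mouse was at -0.73. It was -1.54 at A_51_P513163, where the next was at -0.90. The same mouse was lowest at A_52_P556140 of Vapb, at -2.66, without passing the limit there.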

How the results depend on the processing

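The 40 values were recomputed under 31 alternatives, of which array weights could not enter the correlations and the methods' t-test bore on the relatives alone. All 12 differences between the diets kept their sign under all of these. With normexp, as first planned, the widths were 0.90 in Vapb, 0.63 in Tra2a, 0.39 in Chmp4b and 0.37 in Tcfcp2l1, and 6 pairs of each kind passed. The processed signals of Feature Extraction gave a width of 1.17 in Tra2a, and differences of 0.87 at A_52_P516473 and 0.50 at A_52_P20867 of Tcfcp2l1 and 0.28 at A_52_P482063 and -0.89 at A_52_P591431 of Tra2a. The relatives at an unadjusted p of up to 0.05 were 1 with scaled arrays, 9 with array weights and 4 with the methods' t-test. With slide as a block 3 pairs of the same gene and 3 of leading probes passed, where permutations were limited to 2 mice of a diet on a slide. Leaving out both cHF+F+ROSI mouse 2 and cHF+ROSI mouse 1 was an alternative chosen after seeing the data. The differences were then -0.62 at A_52_P556140, -0.40 at A_52_P591431, -0.19 at A_51_P513163 and -0.48 at A_52_P677718. The widths were 0.66 in Vapb and 0.54 in Tra2a, and 6 pairs of each kind passed. Edwards background correction, also added after seeing the data, changed no call. Leaving out each mouse in turn gave widths of 0.73 to 1.02 in Vapb, 0.54 to 0.78 in Tra2a, 0.25 to 0.36 in Chmp4b and 0.26 to 0.35 in Tcfcp2l1, 6 leading pairs throughout, 3 to 6 pairs of the same gene (3 without cHF+ROSI mouse 3) and 3 to 7 relatives.

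The mice of the diets share replicate numbers in the labels, which name no pairing. The deviations of same-numbered mice correlated between -0.26 and 0.35, which showed no pairing but cannot exclude one. With the replicate number as a block, 4 pairs of the same gene and 5 of leading probes passed, 4 relatives were at an unadjusted p of up to 0.05, 0 passed an adjusted p of 0.05, and the widths were 0.92, 0.72, 0.31 and 0.29 as without it. The causes of these changes were not tested. The weak Cy3 signal limits the dim probes, A_52_P482063 of Tra2a and A_52_P516473, A_52_P20867 and A_52_P63232 of Tcfcp2l1.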
